A study of Mus musculus with 30 samples.

Results

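The genes described here encode the histones of the replication-dependent clusters of the mouse genome, with the linker histones whose newer symbols follow the same pattern. They were taken by symbol, as every Hist1, Hist2, Hist3 or Hist4 gene or its newer H1f, H2ac, H2bc, H3c or H4c name, without symbols that carry a pseudogene ending. The rule found 73 of the 55940 genes in the deposited tables, and 68 of them lie in the clusters. The clustered genes are 6 of class H1, 19 of H2A, 18 of H2B, 12 of H3 and 13 of H4. Of these, 55 belong to Hist1 on chromosome 13, 10 to Hist2 on chromosome 3, 2 to Hist3 on chromosome 11 and 1 to Hist4 on chromosome 6. The other 5 are H1f0, H1fx, H1foo, H1fnt and the pseudogene Hist1h2al, and 1 more pseudogene, Hist1h2aj, sits inside Hist1.

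The libraries came from E14tg2a, a mouse embryonic stem cell line, in 2 experiments of 12 and 18 libraries with 3 libraries in each group. In the time course, cells kept in serum with LIF (Serum/LIF, labelled 0 h and control) were compared with cells moved for 3, 9 or 24 h to EMM, the same medium with galactose in place of glucose and pyruvate. In the passage experiment, cells were grown for 10 (P10) or 20 (P20) passages in Serum/LIF, in EMM, or in 2i/LIF, a medium with inhibitors of GSK3 and MEK plus LIF. The labels name no genetic change in any group, and the study's methods describe the replicates as independent experiments.

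Core histones H2A, H2B, H3 and H4 form the protein spool of the nucleosome, and H1 binds the linker DNA between nucleosomes. The clustered genes are transcribed mainly in S phase, when new DNA is packaged, and their mRNAs end after a stem-loop bound by SLBP in place of a poly(A) tail. H1f0 and H1fx stand alone in the genome, are made outside S phase too, and carry poly(A) tails like most mRNAs.

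The stem-loop is shown because it is the feature that sets the clustered mRNAs apart from polyadenylated ones. The consensus histone 3′ stem-loop, with its stem bases left free to pair differently, was searched on the transcript strand. It was found in the annotated transcripts of 44 of the 68 clustered genes (64.7%), in 0 of the 5 others, and in 28 of 21830 other genes with a protein-coding transcript (0.128%). The commonest form, with 26 genes, was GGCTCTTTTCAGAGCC. In the sequences, capitals mark the stem-loop and lower case its flanks of 5 bases, from GENCODE M21 transcripts on GRCm38.
Hist1h1c: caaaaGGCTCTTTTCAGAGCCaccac
Hist1h1d: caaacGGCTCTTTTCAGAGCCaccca
Hist1h1e: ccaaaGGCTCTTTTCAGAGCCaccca
Hist1h2ap: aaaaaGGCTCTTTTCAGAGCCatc
Hist1h2bg: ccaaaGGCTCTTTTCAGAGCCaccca
Hist1h3e: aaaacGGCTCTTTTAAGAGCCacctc
Hist1h4b: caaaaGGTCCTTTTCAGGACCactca
Hist1h4h: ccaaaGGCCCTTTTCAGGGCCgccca
Hist1h4i: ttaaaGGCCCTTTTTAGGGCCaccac
Hist2h4: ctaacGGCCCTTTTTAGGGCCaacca
The 3 H1 genes listed shared 1 form with Hist1h2ap and Hist1h2bg, whereas Hist1h4b, Hist1h4h, Hist1h4i and Hist2h4 had other stem bases. The annotated transcript of Hist1h1d ran on for 4884 bases after the stem-loop, that of Hist1h1e for 1153, that of Hist3h2a for 1643 and that of Hist1h4h for 46. Of the 44 genes with the motif, 22 had at most 100 bases after it. No match was found in Hist1h1a, Hist1h1b, Hist1h2bc, Hist2h2be, Hist1h3g, H1f0 or H1fx, which says only that these letters are not in their annotated transcripts.

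Promoters were matched for 58 of the 73 genes in the RefSeq windows of 300 bases, from 250 before to 50 after the start, on GRCm38.p6. The CCAAT box, the TATA box written as TATAAA, and the octamer ATTTGCAT were searched on both strands. CCAAT was found in all 44 matched H1, H2A, H2B and H3 cluster genes and in 3 of 10 H4 genes, against 41.1% of 27025 genes. ATTTGCAT was found in 7 of 15 H2A and 7 of 13 H2B genes, in 0 of the 26 of the other classes, and in 1.97% of all genes. TATAAA was found in 57.4% of the 54 clustered genes and in 15.7% of all genes. A linker histone, a core histone and H1f0 are printed because their RNA levels are compared in the results, at chr13:23554782-23555081 (plus strand), chr13:23571150-23571449 (plus strand) and chr15:79027962-79028261 (plus strand). Capitals mark the motifs, in either orientation.
Hist1h1d: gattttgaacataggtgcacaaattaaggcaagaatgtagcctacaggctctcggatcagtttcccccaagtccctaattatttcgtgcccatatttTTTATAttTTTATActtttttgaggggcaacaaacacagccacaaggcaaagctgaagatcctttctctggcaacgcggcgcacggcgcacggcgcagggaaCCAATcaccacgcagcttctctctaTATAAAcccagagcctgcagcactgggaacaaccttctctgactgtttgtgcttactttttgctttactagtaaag
Hist1h2bg: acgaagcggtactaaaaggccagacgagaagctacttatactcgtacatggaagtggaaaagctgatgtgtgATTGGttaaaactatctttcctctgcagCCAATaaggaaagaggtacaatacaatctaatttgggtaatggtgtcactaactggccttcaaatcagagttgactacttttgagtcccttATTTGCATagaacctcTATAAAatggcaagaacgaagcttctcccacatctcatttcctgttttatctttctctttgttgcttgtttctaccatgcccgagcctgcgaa
H1f0: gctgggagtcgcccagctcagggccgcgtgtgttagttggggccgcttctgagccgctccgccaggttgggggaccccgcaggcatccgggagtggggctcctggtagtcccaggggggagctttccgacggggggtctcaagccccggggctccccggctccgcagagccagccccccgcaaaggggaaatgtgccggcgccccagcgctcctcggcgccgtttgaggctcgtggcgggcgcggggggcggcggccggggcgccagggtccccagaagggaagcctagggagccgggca
Hist1h1d held CCAAT and TATA boxes, Hist1h2bg held all 3 motifs, and H1f0 held none of them.

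Most of these RNAs were counted rarely. Libraries held 24074132 to 35301962 counts in the time course and 6944904 to 27912928 in the passage experiment. Values below are normalized counts, that is counts scaled by TMM to the mean library of their experiment, or CPM (counts relative to the library total) where sums over genes are given. In the time course 11 of the 73 genes had 0 counts in all 12 libraries, and 18 had at most 3 counts in every library. In the passage experiment 2 had 0 counts throughout and 5 had at most 3 in every library. The edgeR filter on low counts kept 21 of the 73 in the time course and 42 in the passage experiment, among 16049 and 16054 genes tested. A gene that passed only through a group where it was high had to differ, so counts over the tested members describe them and lend no support of their own.

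Many members share sequence. A median of 21.6% of the 60-base windows of an H2A gene was found in no other gene's transcripts, against 54.7% for H2B, 38.6% for H3, 68.4% for H4 and 99.1% for H1. The 5 genes with no unique window, Hist2h2aa1, Hist2h2aa2, Hist2h2bb, Hist2h3b and Hist2h3c1, had 0 counts in the time course but 57 to 135 in all in the passage experiment. Hist1h2ap, an H2A gene with 7.09% of its windows unique, had 0 counts in the time course and 31086 in the passage experiment, where Hist1h2ah had 19039 and Hist1h2af had 2109. These 3 made up 93.6 to 97.8% of the summed H2A counts of each passage library, and how reads were split between such near-identical genes is uncertain. All 20 H2A members, the pseudogenes included, also overlap a gene annotated on the opposite strand. The passage counts are estimates from Salmon and the time-course counts come from featureCounts, according to the submitters' processing notes, so levels were compared only within an experiment.

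Embryonic stem cell markers were high everywhere, with the 8 genes of that list summing to between 4429 and 7389 CPM in the 30 libraries. Fibroblast markers did not behave alike in both experiments. Their 6 genes summed to 36.8 to 57.6 CPM in every time-course library. In the passage experiment they summed to 135.7 to 164.4 CPM in P10 Serum/LIF and 232.7 to 478.7 in P20 Serum/LIF, against 0.447 to 4.46 in EMM and 2i/LIF. Markers of primitive endoderm, a list of 5 genes, summed to 7.85 to 9.97 CPM in Serum/LIF, 11.2 to 11.6 at 3 h, 13.3 to 15.4 at 9 h and 18.5 to 19.2 at 24 h. Of the 5, 3 were called higher at 9 h and 3 at 24 h. In the passage experiment they summed at P10 to 5.59 to 5.82 CPM in EMM, 4.69 to 5.48 in 2i/LIF and 3.91 to 6.62 in Serum/LIF. These P10 sums hide single markers that moved in opposite directions. With P10 2i/LIF as the reference, EMM had 1 of the 5 called up and 2 called down. With P10 Serum/LIF as the reference, 2i/LIF had 2 called up and 2 down, and EMM 1 up and 0 down. At P20 the markers summed to 8.09 to 13.3 CPM in EMM, 3.89 to 4.23 in 2i/LIF and 7.31 to 10.5 in Serum/LIF. There 4 of 5 were called higher in P20 EMM than in P20 2i/LIF. The 4 trophoblast markers summed to 12.6 to 16.5 CPM in the time course. At P10 they summed to 7.09 to 11.1 CPM in EMM, 23.03 to 25.95 in 2i/LIF and 24.4 to 33.5 in Serum/LIF, and at P20 to 9.59 to 10.1, 8.78 to 16.2 and 20.8 to 30.03. Of the 3 that could be tested, 2 were called lower in EMM than in Serum/LIF at P10 and 2 at P20, and against 2i/LIF 1 was called lower in EMM at each passage. The part of these markers in the histone values was not tested.

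One library stood apart for the clustered genes before any comparison was made. The first Serum/LIF library of the time course was the highest of all 12 libraries for 48 of the 68 clustered genes, or 82.8% of the 58 that had counts in its group, against 10.9% of the 16049 genes tested. Summed H1 reached 30.3, 7.81 and 8.54 CPM in the 3 Serum/LIF libraries, and summed H3 14.9, 1.81 and 2.75. Summed H4 reached 13.7, 2.11 and 3.87 CPM, H2A 6.65, 1.09 and 3.33 and H2B 20.7, 9.24 and 11.2. The first library was thus 6.53 times the mean of the other two libraries for H3, 4.58 for H4, 3.70 for H1, 3.01 for H2A and 2.02 for H2B.

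**Figure D1:**
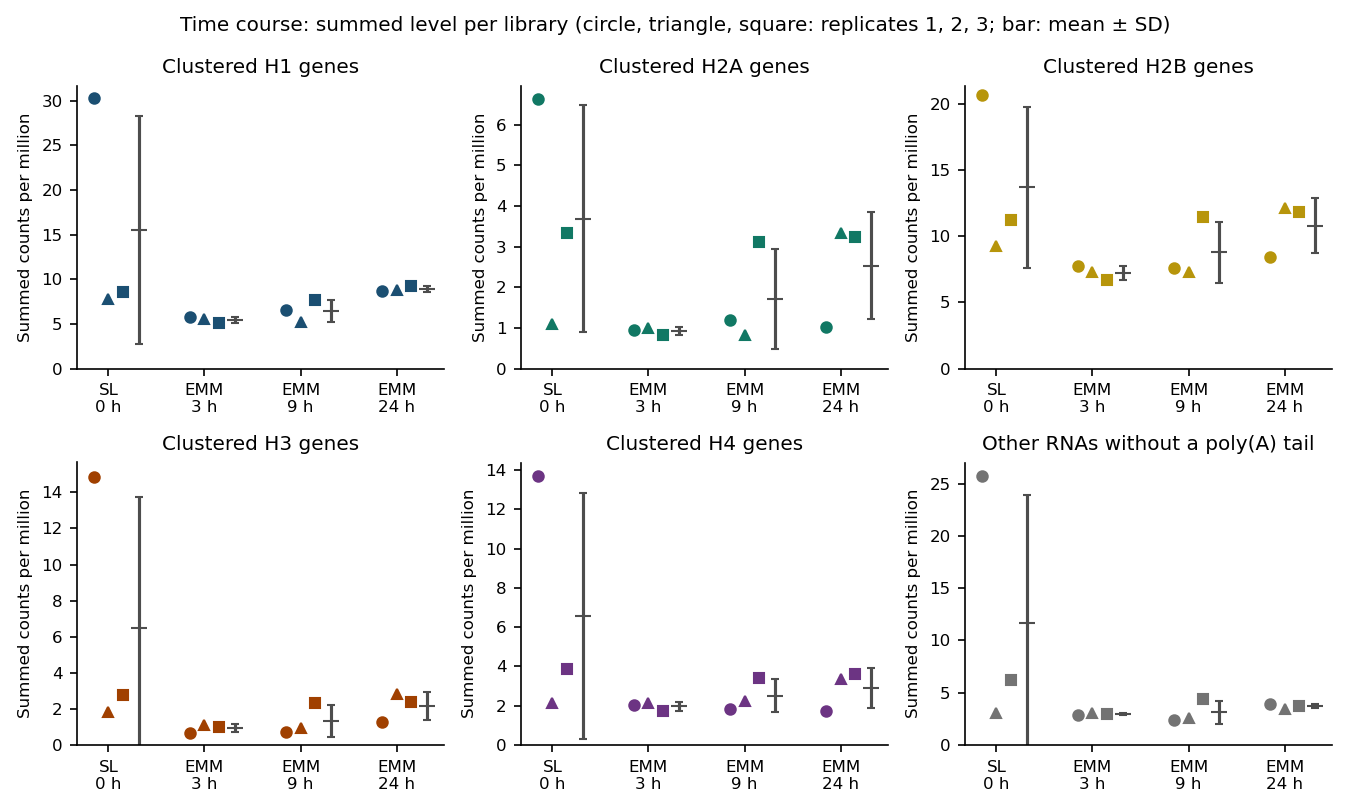
Summed CPM of each clustered histone class and of other RNAs without a poly(A) tail, in the 12 time-course libraries by group, with the mean ± SD of 3 libraries as bars; SD bars that would pass below 0 are drawn to the axis. The first Serum/LIF library lies above the other 11 in all 5 classes, as for H3 with 14.9 against at most 2.84.

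The same library was high for other RNAs that lack a poly(A) tail. The 21 genes of that list summed to 25.7, 3.04 and 6.26 CPM in Serum/LIF, a ratio of 5.53. Rn7sk, the RNA of the 7SK particle that holds the elongation factor P-TEFb, had 417, 23.7 and 39.2 normalized counts. H1f0 and H1fx, whose mRNAs carry tails, had ratios of 1.05 and 1.02 in the same library, and stem cell markers 0.999. Clustered histone RNA and other tailless RNA were thus high in the same library, where H1f0 and H1fx were not.

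**Figure D2:**
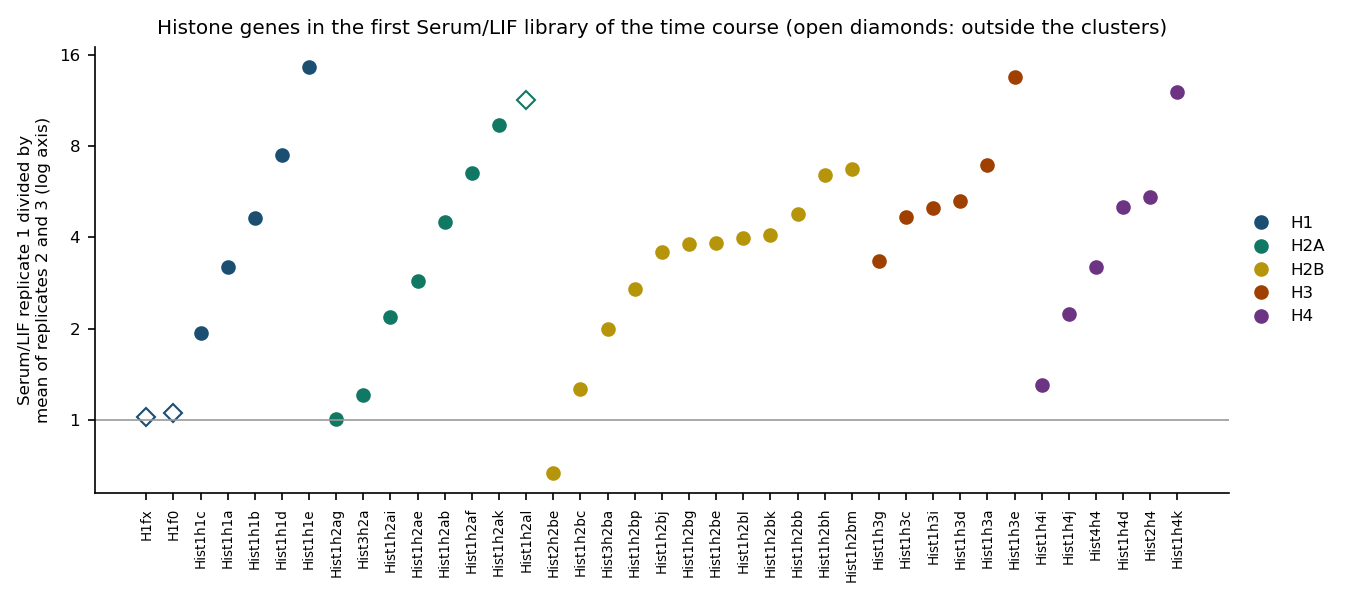
For each histone gene with enough counts, the level in the first Serum/LIF library divided by the mean of the other 2 Serum/LIF libraries (log axis), coloured by class, with open diamonds outside the clusters. Hist1h1e had the highest ratio with 14.5 and Hist2h2be the lowest with 0.669, while H1f0 and H1fx sat close to 1.

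Among 36 clustered genes with enough counts for a ratio, the median was 4.03. Hist1h1e, a linker histone, was at 220.4, 15.8 and 14.5 normalized counts and Hist1h3e at 159, 8.88 and 14.5. Hist1h1d was at 183, 18.8 and 30.2 and Hist2h4 at 67.8, 13.8 and 11.2. In each of these 4 the first library lay far above the other two. Hist1h2bc, an H2B gene without a stem-loop match, was flatter at 228, 177 and 184, and Hist2h2be, also without a match, ran the other way at 21.8, 31.6 and 33.6. The median ratio was 4.48 in 9 genes with at most 100 bases after the stem-loop, 2.55 in 6 with more than 100 and up to 500, 5.16 in 10 with more than 500, and 3.99 in 11 without a match.

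Smaller departures of the same kind occurred elsewhere. The third EMM 9 h library was the highest of its group for 42 of 56 clustered genes with counts, with H3 at 0.708, 0.954 and 2.33 CPM. The first P20 2i/LIF library, the shallowest of all with 6944904 counts, was the highest of its group for 39 of 61, with H4 at 13.8, 5.17 and 4.41 CPM. Other tailless RNAs summed to 164, 27.4 and 47.5 CPM in that group, so they were again highest in the same library. In P10 EMM they summed to 37.5, 54.6 and 102 CPM, highest in the third library. The part of tailless RNA in the results that rest on these libraries was not tested.

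Against this background, the time course asked how early the move to EMM alters the cells' RNA. The 3 EMM groups share the same Serum/LIF libraries. Of the 21 histone genes tested, 3 were called lower and 0 higher at 3 h, at 9 h and at 24 h alike, where a call needs a log2 fold change beyond 1 and an adjusted p under 0.01 by edgeR's quasi-likelihood test. Over all genes 4.22%, 5.55% and 8.18% were called, so the members' share of 14.3% rests on few genes. Beside H1f0, the calls were Hist1h3g and Hist3h2a at 3 h, Hist1h3e and Hist2h4 at 9 h, and Hist1h1a and Hist2h4 at 24 h.

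On the log2 scale, fold changes of the 19 tested cluster genes had medians of -1.46 at 3 h, -1.11 at 9 h and -0.79 at 24 h, where the median of all genes was -0.01, 0.00 and 0.00. Without the first Serum/LIF library these medians were -0.67, -0.41 and -0.04, and 0, 0 and 1 of the 19 were called. Without the second Serum/LIF library 11, 8 and 8 of the 19 were called. Keeping only the 6 cluster genes that reached 10 counts throughout gave medians of -0.95, -0.47 and -0.01, with 3 above 0 and 3 below at 24 h. With no filter on low counts 31, 25 and 21 of 62 histone genes were called, against 2.59%, 3.25% and 4.74% of all genes, and without the first Serum/LIF library as well 2, 1 and 3 of 60, against 2.33%, 3.03% and 4.51%. The number of called histone genes thus moved with the control library left out. In all 3 comparisons the EMM libraries lay below the controls without overlap for some of the 19: 8 at 3 h, 5 at 9 h and 4 at 24 h, against 29.4%, 28.6% and 29.6% of all genes.

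Hist1h1c, the most abundant linker histone of the cluster per kilobase, had 277, 149 and 137 normalized counts in Serum/LIF. It had 106, 97.7 and 94.97 at 3 h, 132, 107 and 133 at 9 h and 207, 196 and 205 at 24 h. All 3 libraries at 3 h lay below every control library, with a log2 fold change of -0.90 (SE 0.21, adjusted p = 0.0023), and at 24 h the groups overlapped. Hist1h1a had 96.9, 24.7 and 35.8 in Serum/LIF and 10.6, 15.7 and 16.4 at 24 h. Its EMM 24 h libraries were lower than every control, with -1.83 on the log2 scale (adjusted p = 0.0023). The value ranged from -2.18 to -1.06 over the alternatives and was lost without the first EMM 24 h library. Hist1h1d had 23.7, 18.02 and 10.4 at 3 h and Hist1h1e 13.4, 6.64 and 6.91, and neither was called at any time. Hist1h1e also had 7.27, 5.69 and 14.5 at 9 h and 4.83, 10.5 and 12.3 at 24 h, so all its EMM libraries lay below every control, the highest of them with 14.51 against a lowest control of 14.55. Its log2 fold changes were -3.17, -3.14 and -3.12 with adjusted p of 0.011, 0.011 and 0.011 by edgeR, called in 5, 4 and 4 of 11 alternatives, and without the first Serum/LIF library they were -0.78, -0.74 and -0.72 and not called.

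Of the H2A genes, 2 of 19 could be tested. Hist3h2a, of the small Hist3 cluster, had 21.8, 14.8 and 21.3 normalized counts in Serum/LIF and 9.26, 9.49 and 9.50 at 3 h, without overlap. It had 16.4, 17.8 and 21.6 at 24 h, back within the range of the controls. The 3 h difference was -1.01 (SE 0.26, adjusted p = 0.0055) on the log2 scale, which stood just past the fold threshold and was lost when any library of either group but the second Serum/LIF library was left out. It was also lost with DESeq2, with the DESeq2 size factors in edgeR and with no filter on low counts. Hist3h2a overlaps Trim17 on the same strand, so reads of these genes cannot be told apart where they overlap. Hist1h2ae, the other H2A gene tested, ran from 0.987 to 39.96 within Serum/LIF alone.

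Of the H2B genes, 6 of 18 were tested and 0 were called at any time by edgeR or by DESeq2. The most abundant per kilobase, Hist1h2bc, had 228, 177 and 184 normalized counts in Serum/LIF. It had 155, 162 and 134 at 3 h and 163, 221 and 213 at 24 h, and only the 3 h libraries lay below all controls. Of the 6, 5 had an unadjusted p under 0.05 at 3 h, 1 at 9 h and 0 at 24 h, against 53.3%, 55.9% and 59.9% of all genes.

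Of the H3 genes 3 of 12 were tested. Hist1h3g had 49.6, 11.8 and 17.9 normalized counts in Serum/LIF and 2.06, 5.69 and 2.59 at 3 h. The groups did not overlap, and the ratio of summed counts was 7.31-fold (exact 95% interval 3.84 to 15.3), an interval that covers counting error only. Its log2 fold change was -2.84 (SE 0.71, adjusted p = 0.004), and without the first Serum/LIF library it was -2.05 and not called, nor was it without the first or the third EMM library. Hist1h3e had 4.54, 3.79 and 7.26 at 9 h, below all controls, with a log2 fold change of -3.47 (SE 0.97, adjusted p = 0.0078) that became -1.14 without that library and was also lost without any 1 EMM library. Hist1h3c, the most abundant H3 gene per kilobase, had 72.7, 9.87 and 21.3 in Serum/LIF, 6.17, 7.59 and 7.77 at 3 h, 6.36, 8.53 and 23.8 at 9 h and 8.70, 35.6 and 19.5 at 24 h. Its 3 h libraries lay below every control, with -2.18 (SE 0.73, adjusted p = 0.023) on the log2 scale and -1.06 without the first Serum/LIF library, and the later groups overlapped the controls.

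Of the H4 genes 3 of 13 were tested. Hist2h4 had 6.36, 6.63 and 5.18 normalized counts at 9 h and 0.967, 4.19 and 6.17 at 24 h, in both cases below every control library. Its log2 fold changes were -2.27 (SE 0.66, adjusted p = 0.0099) and -2.96 (SE 0.74, adjusted p = 0.0032), and without the first Serum/LIF library they were -1.02 and -1.72 and no longer called. The first was also lost without any 1 EMM library, and the second without the first or the second EMM library. Hist1h4i, the most abundant H4 gene per kilobase, had 46.02, 23.7 and 47.00 in Serum/LIF, 19.6, 21.8 and 16.4 at 3 h and 21.3, 43.99 and 55.5 at 24 h. Only its 3 h libraries lay below all controls.

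H1f0 had tight replicates and was lower at every time. H1f0, the replacement linker histone that accumulates in quiescent and differentiating cells, lies at chr15:79028450-79030504 and was the most abundant gene of the rule per kilobase in the time course. It had 3317, 3443 and 2845 normalized counts in Serum/LIF. It had 1584, 1592 and 1591 at 3 h, 1136, 1169 and 939 at 9 h and 1590.1, 1416 and 1466 at 24 h. No EMM library reached the lowest control, and the 9 h libraries were the lowest of all. The log2 fold changes were -1.01 (SE 0.078, adjusted p = 8.3e-08) at 3 h, -1.56 (SE 0.08, adjusted p = 1.1e-09) at 9 h and -1.10 (SE 0.078, adjusted p = 2.0e-08) at 24 h.

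The calls at 9 h and 24 h held under every alternative, including without the first Serum/LIF library, with -1.53 and -1.07. At 3 h the value ranged from -1.09 to -0.95 and dropped under the fold threshold in 3 alternatives, such as without the first Serum/LIF library with -0.98. Fibroblast markers, which move with H1f0 in the passage experiment, summed to 52.3, 49.6 and 51.2 CPM in Serum/LIF and 49.5, 57.6 and 52.8 at 3 h. They summed to 49.9, 53.7 and 54.2 at 9 h and 42.8, 36.8 and 41.8 at 24 h, where every library lay below every control. Of the 4 that could be tested, 1 was called higher at 9 h and 0 were called lower at any time, although 2 were lower at 24 h at an adjusted p under 0.01 by edgeR without the fold threshold. Without the first Serum/LIF library 5 could be tested and 0 were lower at 24 h by that p. Their part in the H1f0 values was not tested.

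H1fx, a linker histone variant at chr6:87980421-87981637, had 1411, 1328 and 1431 normalized counts in Serum/LIF. It had 971, 991 and 892 at 3 h, 670.2, 669 and 755 at 9 h and 946, 1209.7 and 1108 at 24 h. Every EMM library was below every control, and the 9 h group was the lowest. The log2 fold changes of -0.55 (SE 0.078, adjusted p = 4.0e-05), -0.99 (SE 0.08, adjusted p = 1.1e-07) and -0.35 (SE 0.078, adjusted p = 0.0012) passed the p threshold but not the fold threshold. H1f0 and H1fx each overlap a gene annotated on the opposite strand, and H1fx also Gm47286 on its own strand.

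**Figure D3:**
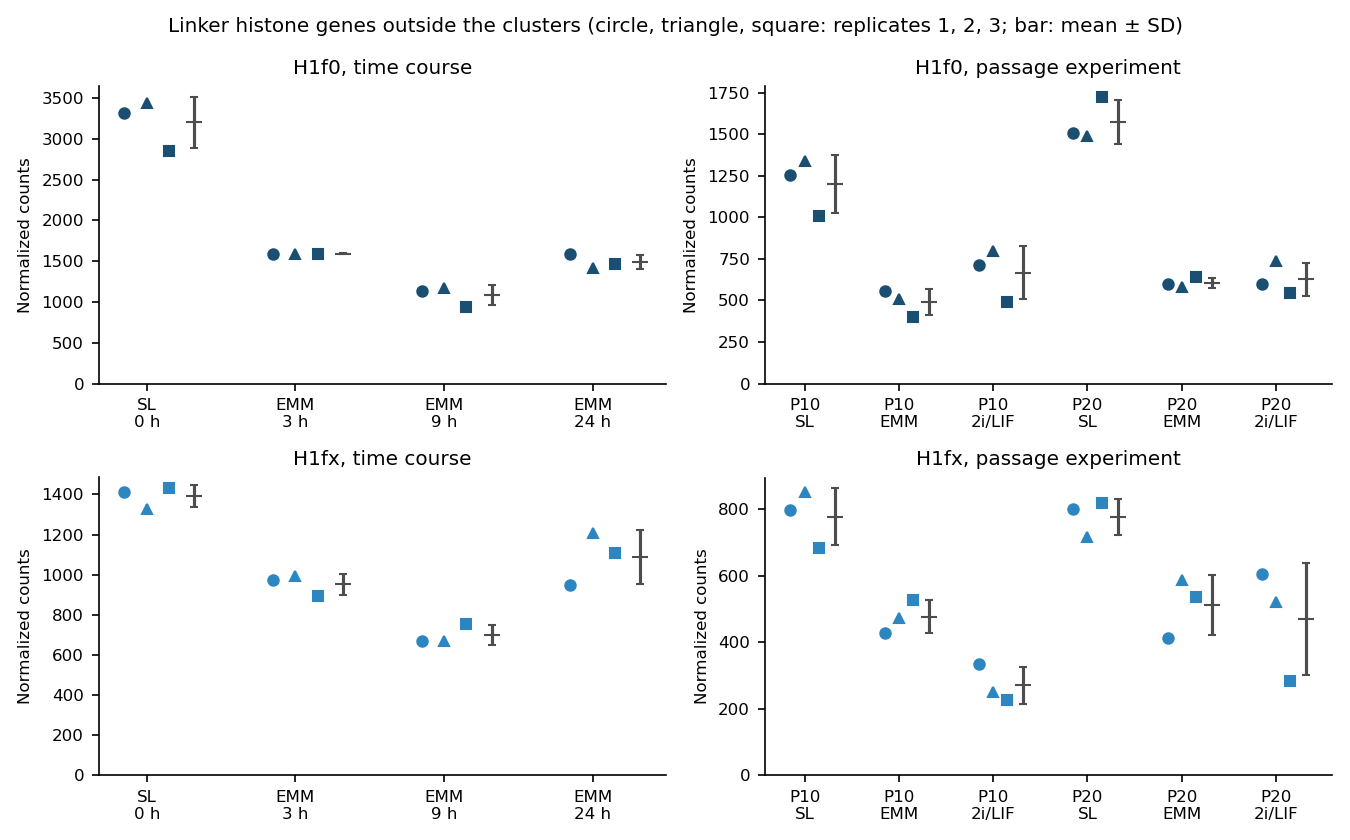
Normalized counts of H1f0 (top) and H1fx (bottom) in each library of the time course (left) and the passage experiment (right), with circle, triangle and square for replicates 1 to 3 and bars for mean ± SD. H1f0 fell from 2845 or more in Serum/LIF to 1592 or less in every EMM library of the time course, and was at 1009 or more only in Serum/LIF in the passage experiment.

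The passage experiment asked how cells adapted to EMM differ from those in Serum/LIF and 2i/LIF. H1f0 differed between media at both passages. It had 1259, 1340.3 and 1009 normalized counts in P10 Serum/LIF, 560.2, 509.7 and 403 in P10 EMM and 714, 797 and 492 in P10 2i/LIF. At P20 it had 1506, 1489 and 1726 in Serum/LIF, 597, 584 and 640.5 in EMM and 601, 737 and 544 in 2i/LIF. Serum/LIF was above the other 2 media in all libraries at both passages, while EMM and 2i/LIF overlapped at P10 and at P20. Relative to Serum/LIF, EMM had log2 fold changes of -1.28 (SE 0.16, adjusted p = 3.6e-06) and -1.37 (SE 0.16, adjusted p = 2.5e-06) at the 2 passages. In 2i/LIF the values were -0.86 (SE 0.16, adjusted p = 1.3e-04) at P10, short of the fold threshold, and -1.32 (SE 0.16, adjusted p = 1.4e-06) at P20.

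H1fx was lower in 2i/LIF at P10, with 333, 249.8 and 226 normalized counts against 797, 851 and 684 in Serum/LIF and 428, 472 and 527 in EMM. The 3 groups did not overlap. On the log2 scale 2i/LIF differed from Serum/LIF by -1.54 (SE 0.21, adjusted p = 4.8e-06), and the value in EMM against 2i/LIF was 0.82 (SE 0.22, adjusted p = 0.0034). At P20 it had 604, 522 and 282 in 2i/LIF and 799, 715 and 817 in Serum/LIF, a log2 fold change of -0.75 (SE 0.2, adjusted p = 0.0042) that did not pass the fold threshold.

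Fibroblast markers separated the same groups. All 4 of the 6 fibroblast genes that could be tested were called lower in EMM and in 2i/LIF than in Serum/LIF at both passages. Summed, they reached 135.7 CPM or more in every passage Serum/LIF library and 4.46 or less in every other. Fewer cells of a type and less RNA per cell cannot be told apart in such bulk libraries. Their part in the H1f0, H1fx, Hist1h2bc and Hist3h2a differences against passage Serum/LIF was not tested, while EMM and 2i/LIF had sums of 0.447, 1.23 and 1.64 and 3.59, 1.75 and 3.72 CPM at P10.

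**Figure D4:**
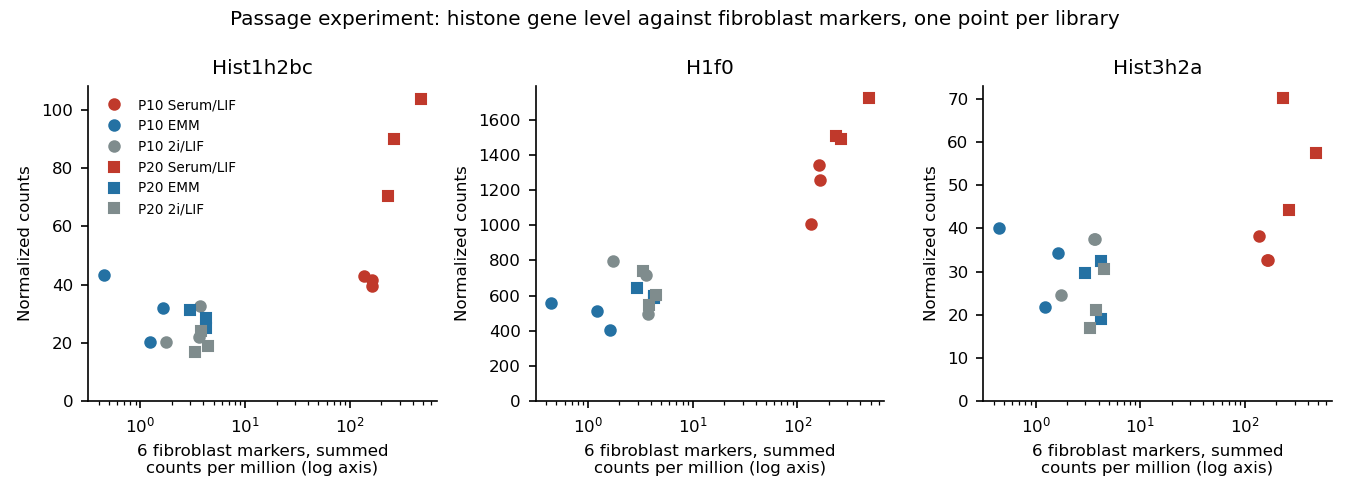
Normalized counts of Hist1h2bc, H1f0 and Hist3h2a against the summed CPM of 6 fibroblast markers (log axis) in the 18 passage libraries, coloured by medium, circles for P10 and squares for P20. The 6 Serum/LIF libraries lie at 135.7 or more on the marker axis and the other 12 at 4.46 or less.

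In P10 EMM against P10 Serum/LIF 2 of 42 members were called against 17.1% of all genes. In P10 2i/LIF against P10 Serum/LIF 7 were called, all lower, against 26.4%. In P10 EMM against P10 2i/LIF 10 were called, all higher and all in the clusters, a share of 23.8% against 22.1% of all genes. At P20, 3 were called in EMM against Serum/LIF (9.63% of all genes), all lower, and 5 in 2i/LIF against Serum/LIF (22.3%), all lower. In P20 EMM against P20 2i/LIF edgeR called 0 (25.3%), with 8 members at an unadjusted p under 0.05, against 63.2% of all genes, and 1 call by DESeq2. Comparisons within a passage share libraries, so their values are set side by side and not counted as separate evidence.

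**Figure D5:**
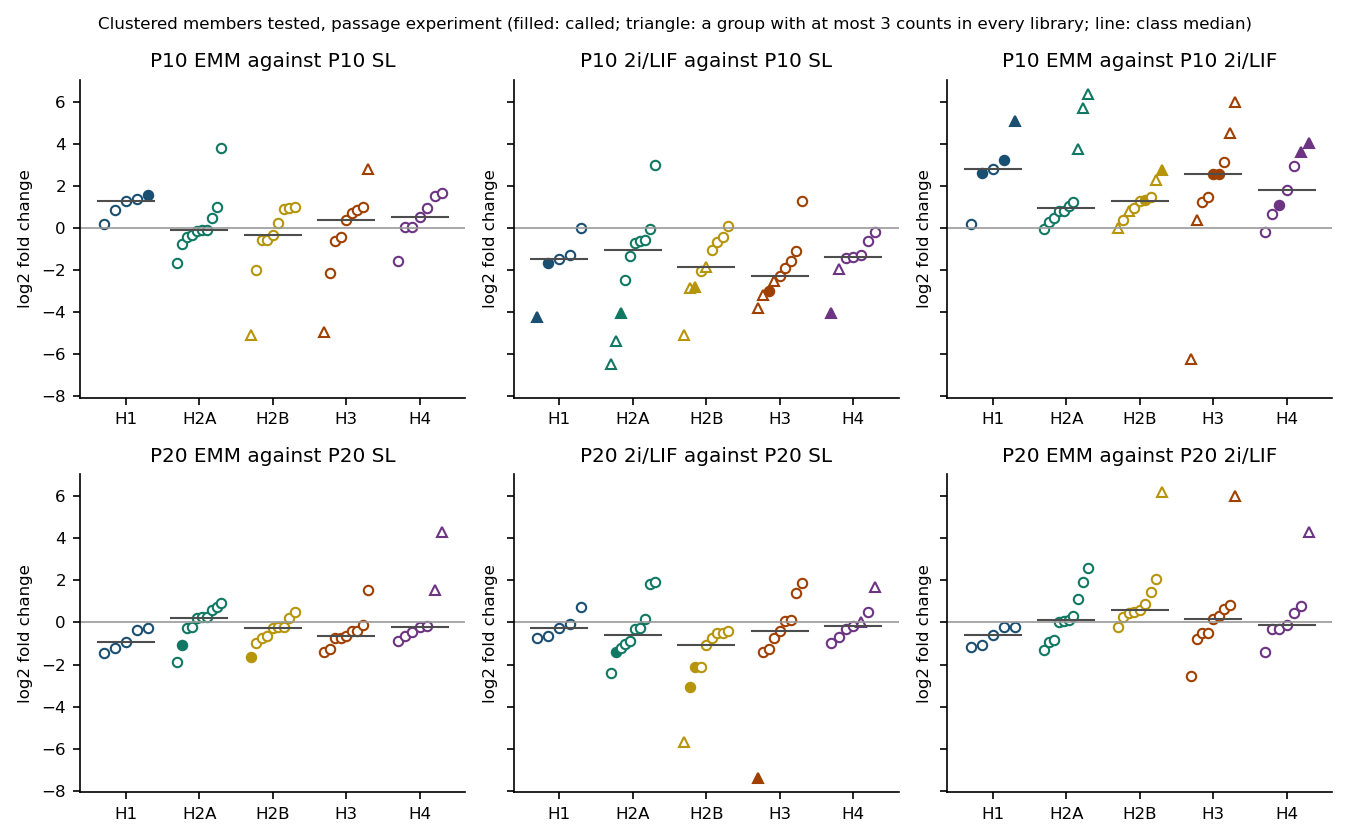
Log2 fold changes of the tested cluster genes by class in the 6 comparisons between media, filled where called, with triangles for genes that had at most 3 counts in every library of one of the groups and a line at each class median. In P10 EMM against P10 2i/LIF 36 of 40 values are above 0, and in P10 2i/LIF against P10 Serum/LIF 36 of 40 are below; triangle values depend on a small count added in the fit.

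At P10 the median over the 40 tested cluster genes was 0.21 in EMM and -1.51 in 2i/LIF against Serum/LIF on the log2 scale, and 1.41 in EMM against 2i/LIF. The median of all genes was 0.01, 0.02 and 0.01. Without the third P10 EMM library the first median was -0.07, with 18 genes above 0 and 22 below, and the last was 1.47. In the 6 cluster genes that reached 10 counts throughout, the 3 medians were -0.02, -0.47 and 0.39, and the larger values above include genes with 0 or 1 count in a 2i/LIF library. Those 6 were 4 H2A genes, Hist1h2ap and Hist1h2ah among them, with 1 H1 and 1 H4 gene. How reads were split between near-identical H2A genes is uncertain, so these medians do not stand for all classes. At P20 the same medians were -0.31, -0.48 and 0.15, and they moved with the library left out. Leaving out single libraries gave -0.42 to -0.22 for the first, -0.80 (without the first 2i/LIF library) to -0.24 (without the first Serum/LIF library) for the second, and -0.0046 (without the second EMM library) to 0.46 (without the first 2i/LIF library) for the last. Without the second or the third 2i/LIF library the last was 0.04 and 0.02. In the same 6 genes they were -0.28, -0.60 and 0.12.

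Of the cluster H1 genes, Hist1h1d, Hist1h1e and Hist1h1a were called higher in P10 EMM than in P10 2i/LIF. Hist1h1d had 15.4, 10.9 and 16.2 normalized counts in P10 Serum/LIF, 35.4, 42.1 and 50.4 in P10 EMM and 7.85, 2.90 and 3.26 in P10 2i/LIF. The 3 groups did not overlap, with EMM highest and 2i/LIF lowest. The log2 fold change was 1.56 (SE 0.4, adjusted p = 0.0031) in EMM and -1.65 (SE 0.5, adjusted p = 0.008) in 2i/LIF against Serum/LIF, and 3.21 (SE 0.47, adjusted p = 1.4e-05) in EMM against 2i/LIF. The last of these held under every alternative, while the first was lost without the third EMM or the second Serum/LIF library, over a range of 1.40 to 1.69. The second was lost without any of 4 libraries and with no filter on low counts, over -2.14 to -1.39.

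Hist1h1e had 0, 0 and 1 counts in P10 2i/LIF, 13, 11 and 12 in P10 EMM and 14, 6 and 8 in P10 Serum/LIF. With a single count in 2i/LIF the ratio to EMM was 39.6-fold (exact 95% interval 6.66 to 1606) and that to Serum/LIF 24.6-fold (exact 95% interval 4.06 to 1005). Both were called, with adjusted p of 8.4e-04 and 0.0043, and the first held under every alternative, while the second was lost without any of 4 libraries. Hist1h1e overlaps Hist1h2be on the same strand. Hist1h1a had 30.5, 56.1 and 50.4 normalized counts in P10 EMM and 10.99, 7.26 and 4.89 in P10 2i/LIF, a log2 fold change of 2.59 (SE 0.5, adjusted p = 2.3e-04) without overlap.

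Hist1h1c was not called. It had 115, 79.4 and 119 in P10 Serum/LIF, 104, 96.6 and 163 in P10 EMM and 100.5, 126 and 90.4 in P10 2i/LIF, with all groups overlapping. At P20 it had 73.5, 52.6 and 63.8 in EMM against 123, 120.0 and 120.1 in Serum/LIF, a log2 fold change of -0.94 (SE 0.25, adjusted p = 0.0068), short of the fold threshold.

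The H2A sum was carried by Hist1h2ap and Hist1h2ah. Hist1h2ap had 1982, 1771 and 1770.0 normalized counts in P10 Serum/LIF, 1535, 1287 and 1271 in P10 EMM and 1188, 1134 and 1034 in P10 2i/LIF. The groups did not overlap, and 2i/LIF was lowest. Its log2 fold change in 2i/LIF against Serum/LIF was -0.72 (SE 0.15, adjusted p = 3.9e-04), and that of Hist1h2ah was -0.61 (SE 0.16, adjusted p = 0.0026), so both passed the p threshold alone. Hist1h2af had 569, 58.4 and 51.7 in P20 2i/LIF, where the first library was the high one.

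Hist1h2ag was called lower in P10 2i/LIF than in Serum/LIF, with 0, 1 and 0 counts against 11, 8 and 6, a ratio of 21.9-fold (exact 95% interval 3.59 to 901). The call was lost when any of 5 of the 6 libraries was left out. Hist3h2a had 70.4, 44.3 and 57.6 normalized counts in P20 Serum/LIF, 32.6, 19.02 and 29.7 in EMM and 30.5, 16.99 and 21.1 in 2i/LIF. Serum/LIF lay above both without overlap. Its log2 fold changes were -1.09 (SE 0.29, adjusted p = 0.0056) in EMM, lost in 4 alternatives, and -1.40 (SE 0.31, adjusted p = 8.1e-04) in 2i/LIF, held in all of them.

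Of the H2B genes, Hist1h2bc was called against Serum/LIF in both media at P20. It had 70.4, 90.00 and 104 normalized counts in Serum/LIF, 25.1, 28.5 and 31.2 in EMM and 18.8, 16.99 and 23.9 in 2i/LIF. The lowest Serum/LIF library was above every library of the other media. The log2 fold changes were -1.63 (SE 0.25, adjusted p = 6.4e-05) in EMM and -2.13 (SE 0.28, adjusted p = 3.1e-06) in 2i/LIF, and both calls held under every alternative. Hist3h2ba, the H2B gene of the Hist3 cluster, had 1, 6 and 0 counts in P20 2i/LIF against 28, 23 and 14 in Serum/LIF, a ratio of 8.32-fold (exact 95% interval 3.82 to 21.5). At P10 it had 3, 0 and 2 against 10, 15 and 17, and the call there was lost without any of 3 libraries.

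In P10 EMM against P10 2i/LIF, Hist1h2bk had 26.5, 31.2 and 20.6 normalized counts against 15.7, 5.81 and 9.77, a log2 fold change of 1.35 (SE 0.41, adjusted p = 0.0094). Hist1h2bg, whose promoter is printed above, had 17, 3 and 7 counts against 3, 0 and 1, a ratio of 7.42-fold (exact 95% interval 2.59 to 29.2). Hist1h2bg overlapped at its lowest EMM library. Neither call held throughout: that of Hist1h2bk was lost in 8 alternatives and that of Hist1h2bg in 4, over log2 ranges of 1.10 to 1.69 and 2.26 to 4.18.

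Of the 9 tested H3 genes, 1 was called lower in P10 2i/LIF than in P10 Serum/LIF and 2 higher in P10 EMM than in P10 2i/LIF, against 26.4% and 22.1% of all genes. Summed H3 was 2.59, 0.828 and 3.26 CPM in P10 2i/LIF, 6.96, 7.49 and 11.3 in P10 EMM and 8.03, 7.60 and 7.67 in P10 Serum/LIF, with 2i/LIF below the others without overlap. Hist1h3c had 7.85, 0 and 2.44 normalized counts in 2i/LIF, 14.5, 14.03 and 34.4 in EMM and 16.4, 29.8 and 32.4 in Serum/LIF. Its log2 fold change in 2i/LIF against Serum/LIF was -2.98 (SE 0.59, adjusted p = 2.7e-04), held under every alternative, and that in EMM against 2i/LIF was 2.57 (SE 0.63, adjusted p = 0.0019), lost without the third library of either medium. Hist1h3e had 19, 11 and 14 counts in EMM and 2, 0 and 7 in 2i/LIF, a log2 fold change of 2.56 (SE 0.68, adjusted p = 0.0038) that was lost without the first or the second 2i/LIF or the third EMM library. Hist2h3c1 ran the other way at P10, with 0, 4 and 23 counts in 2i/LIF against 11, 0 and 0 in Serum/LIF, and was not called. It had 0, 0 and 0 counts in P20 2i/LIF against 18, 25 and 21 in P20 Serum/LIF and was thus at least 19.1-fold lower, with the floor of 3 counts taken over the group, a call lost without the second 2i/LIF library. It has no 60-base window of its own, so which gene its estimated counts belong to is uncertain.

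Summed H4 was 8.65, 9.86 and 11.7 CPM in P10 EMM, 7.78, 5.83 and 7.22 in P10 Serum/LIF and 5.28, 2.02 and 2.80 in P10 2i/LIF, and the 3 groups did not overlap. Hist1h4h had 20, 9 and 8 counts in EMM and 1, 1 and 1 in 2i/LIF, a ratio of 13.6-fold (exact 95% interval 4.29 to 68.7) and a call held under every alternative. Hist1h4i had 47.4, 57.7 and 50.4 normalized counts in EMM, 34.5, 15.98 and 21.99 in 2i/LIF and 30.9, 20.8 and 28.9 in Serum/LIF. EMM lay above both without overlap, with a log2 fold change against 2i/LIF of 1.11 (SE 0.29, adjusted p = 0.0037) that was lost without the second or the third 2i/LIF or the second EMM library. Hist1h4b had 13, 22 and 0 counts in EMM, 0, 2 and 0 in 2i/LIF and 18, 15 and 11 in Serum/LIF, and the third EMM library had none. The ratio to 2i/LIF was 19.2-fold (exact 95% interval 4.94 to 165) for EMM and 19.3-fold (exact 95% interval 5.04 to 164) for Serum/LIF, and both calls were lost without the first or the third 2i/LIF library.

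In P10 EMM against P10 2i/LIF, 15 of the 40 tested cluster genes were higher without overlap, where 29.1% of all genes were. In P10 2i/LIF against P10 Serum/LIF, 18 of 40 were lower without overlap, where 32.7% of all genes were. These counts may include genes that passed the filter through the higher group only.

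Each medium was also compared between P10 and P20. In EMM 2 members were called lower at P20 (8.54% of all genes), Hist1h1a and Hist1h1d. Hist1h1d had 6.51, 10.1 and 14.5 normalized counts in P20 EMM against 35.4, 42.1 and 50.4 at P10, and the difference of -1.99 (SE 0.39, adjusted p = 7.1e-04) on the log2 scale held under every alternative. Hist1h1a had 11.2, 14.5 and 8.70 against 30.5, 56.1 and 50.4, a log2 fold change of -1.94 (SE 0.44, adjusted p = 0.0021) that was lost without the second P10 or the third P20 library. The other tested cluster H1 genes, Hist1h1b, Hist1h1c and Hist1h1e, had -2.74, -0.91 and -1.53 on the log2 scale and were not called. Other tailless RNAs summed to 26.8, 29.7 and 33.6 CPM in P20 EMM and 37.5, 54.6 and 102 in P10 EMM, and their part was not tested.

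In Serum/LIF 1 member was called, Hist1h2bc, higher at P20 (1.84% of all genes). It had 39.5, 41.7 and 42.8 normalized counts at P10 and 70.4, 90.00 and 104 at P20, without overlap and with a log2 fold change of 1.09 (SE 0.25, adjusted p = 0.0075) that ranged from 0.96 to 1.23 and was lost without 5 of the 6 libraries in turn. Fibroblast markers summed to between 135.7 and 164.4 CPM at P10 and between 232.7 and 478.7 at P20 in the same libraries, and their part was not tested. In 2i/LIF edgeR called 0 members between passages (10.1% of all genes), with 13 at an unadjusted p under 0.05 (49.1%) and 5 called by DESeq2. Hist1h2ap was higher at P20 there by 0.65 (SE 0.15, adjusted p = 0.0021) on the log2 scale, past the p threshold only.

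The change from P10 to P20 was also compared between media. For EMM against Serum/LIF edgeR called 0 members (8.4% of all genes), with 10 at an unadjusted p under 0.05 (36.4%) and 1 called by DESeq2. All 5 tested cluster H1 genes were among the 10, with differences of -2.80 to -1.13 on the log2 scale. For 2i/LIF against Serum/LIF 2 were called (9.32%), Hist1h2bc and Hist2h3c1, both lower, and the calls were lost in 9 and 10 alternatives.

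Genes that make, process and deliver histone mRNA and protein were looked at as lists, with counts given at an adjusted p under 0.01 by edgeR's quasi-likelihood test without a fold threshold. Of 22 genes for the transcription and 3' end processing of histone mRNA, 3 were higher and 4 lower at 3 h, 2 and 6 at 9 h, and 2 and 8 at 24 h. Of all genes 16.3% were higher and 18.2% lower at 3 h, 18.5% and 19.7% at 9 h, and 21.8% and 22.2% at 24 h. Slbp, the stem-loop binding protein, had 3337, 3321 and 3568 normalized counts in Serum/LIF. It had 2578, 2690.0 and 2572 at 3 h, 2952, 2820.5 and 2931 at 9 h and 2566, 2764 and 2648 at 24 h, each time below all controls. The log2 fold changes were -0.38 (SE 0.041, adjusted p = 2.5e-06), -0.23 (SE 0.041, adjusted p = 2.5e-04) and -0.36 (SE 0.041, adjusted p = 3.2e-06), and the first Serum/LIF library did not stand apart for this tailed mRNA.

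In the passage experiment Slbp had 3372, 2698 and 2779 normalized counts in P20 2i/LIF, 2102, 1780.0 and 1764 in P20 Serum/LIF and 1348, 1516 and 1424 in P20 EMM, with 2i/LIF highest and EMM lowest without overlap. Its log2 fold change was -1.04 (SE 0.11, adjusted p = 1.7e-07) in EMM against 2i/LIF and 0.64 (SE 0.11, adjusted p = 5.9e-05) in 2i/LIF against Serum/LIF. The first ranged from -1.10 to -0.94 and dropped under the fold threshold without the first P20 2i/LIF or the first P20 EMM library. At P10, 2i/LIF was below Serum/LIF, with -0.41 (SE 0.11, adjusted p = 0.0029), and the difference between passages was 1.06 (SE 0.15, adjusted p = 7.6e-05), a call lost in 3 alternatives over a range of 0.95 to 1.19, among them without the first P20 2i/LIF and without the second P10 2i/LIF library. Npat, the cyclin E/CDK2 substrate that activates histone genes, was lower in P10 EMM than in P10 2i/LIF, at -0.56 on the log2 scale (adjusted p = 0.0028). Of the same list Hinfp, which binds H4 promoters, was higher in P10 2i/LIF than in Serum/LIF by 1.13. Upf1, a helicase of histone mRNA decay, was higher in P20 2i/LIF than in Serum/LIF by 1.04, a call lost in 2 alternatives over a range of 0.92 to 1.12.

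Of 28 replication genes, 0 were higher and 6 lower at 3 h, 2 and 14 at 9 h, and 3 and 20 at 24 h, with medians of -0.01, -0.13 and -0.29 on the log2 scale. Of 20 mitotic genes, 0 were higher and 15 lower at 3 h, with 1 and 14 at both later times. Over all genes 16.3%, 18.5% and 21.8% were higher and 18.2%, 19.7% and 22.2% lower at 3, 9 and 24 h. Without the first Serum/LIF library, 6, 12 and 20 replication genes and 16, 14 and 13 mitotic genes were lower.

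At P10, 17 of 20 mitotic and 11 of 28 replication genes were higher in EMM than in 2i/LIF and 0 were lower, against 22.9% and 22.2% of all genes. Ccne1, the cyclin of S phase entry, was higher by 1.67 and Kif23, a kinesin of cytokinesis, by 1.12 on the log2 scale. Against P10 Serum/LIF, 0 mitotic genes were higher and 18 lower in 2i/LIF, while 1 was higher and 1 lower in EMM. Among the replication genes 2 were higher and 8 lower in 2i/LIF against P10 Serum/LIF, and 6 higher and 1 lower in EMM. At P20 22 of 28 replication genes were lower in EMM than in 2i/LIF and 1 was higher, against 22.9% and 25.7% of all genes, with Tk1, a thymidine kinase, at -1.55. Of the 20 mitotic genes 3 were higher and 3 lower in that comparison, with a median of -0.13. Against P20 Serum/LIF, 14 replication genes were higher and 2 lower in 2i/LIF, and 0 were higher and 9 lower in EMM.

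Of 17 chaperone genes, 2 were higher and 5 lower at 3 h, 2 and 9 at 9 h, and 2 and 11 at 24 h. Over all genes 16.3%, 18.5% and 21.8% were higher and 18.2%, 19.7% and 22.2% lower at these times. Ubn1, a subunit of the HIRA complex, was called higher in P20 EMM than in P20 Serum/LIF by 1.25 on the log2 scale. Of 10 replication-independent variants, a list that includes H1fx, 4 were lower at 3 h, 6 at 9 h and 5 at 24 h, and 0 were higher. Without the first Serum/LIF library 4, 4 and 3 of these variants were lower. H2afy2, a macroH2A gene, was lower in P10 EMM than in P10 2i/LIF, at -2.19, and H2afy, the other macroH2A gene, at -1.61 on the log2 scale. In that comparison 4 of the 10 variants were higher and 2 lower, with a median of 0.25. From P10 to P20 in EMM H2afy2 rose by 1.83 on the log2 scale.

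Of the 21 tailless RNAs, 5 could be tested in the time course and 8 in the passage experiment. Rn7sk had log2 fold changes of -3.07 (SE 0.86, adjusted p = 0.0086), -3.20 (SE 0.88, adjusted p = 0.007) and -2.60 (SE 0.82, adjusted p = 0.014), and the medians of the 5 were -1.39, -1.09 and -1.01. Without the first Serum/LIF library these medians were -0.61, -0.64 and -0.32, and Rn7sk was at -0.76, -0.88 and -0.28 and not called. Its 3 h and 9 h calls were also lost without any 1 EMM library, the 3 h call also when 10 counts were asked of every library, and the 24 h value was called in 5 of 12 alternatives. Terc, the RNA template of telomerase, was the other call of this list, at 3 h, with -1.39 (SE 0.28, adjusted p = 8.8e-04) on the log2 scale. That call ranged from -1.53 to -1.29, held without the first Serum/LIF library and was lost with DESeq2. Terc had 20.6, 14.8 and 20.1 normalized counts in Serum/LIF and 8.23, 6.64 and 6.04 at 3 h. Rmrp, the RNA of RNase MRP, was called higher in P10 EMM than in P10 Serum/LIF by 2.15 on the log2 scale (adjusted p = 0.0075), over a range of 1.54 to 3.03. That call was lost without the second or the third P10 EMM library and without the first or the second P10 Serum/LIF library. Rn7sk was called higher in P20 2i/LIF than in P20 Serum/LIF by 1.53 (adjusted p = 0.0072), lost in 7 alternatives over 0.73 to 1.97, among them without the first 2i/LIF library. Rpph1, the RNA of RNase P, was called lower in EMM at P20 than at P10, with -1.43 (adjusted p = 0.0067), and in the difference between passages for EMM against Serum/LIF, with -2.10 (adjusted p = 0.0083), and these were lost in 5 and 10 alternatives.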

How the data were processed

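RNA from E14tg2a cells was sequenced after rRNA depletion in 60-base reads, per the study's methods, which do not describe the passage libraries separately. The time-course table holds whole-number read counts per gene that the authors deposited, made with STAR and featureCounts on mm10 per the labels' processing notes (the methods name HTSeq). The passage table holds estimated counts that the authors deposited, made with STAR and Salmon. Of its values 9.98% were not whole, and these were rounded. All 12 and 18 columns were used, and Serum/LIF at 0 h is also described as 24 h in the labels.

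Counts were normalized by TMM, filtered with filterByExpr, and fitted per experiment with edgeR 4.0.16 (glmQLFit, glmQLFTest, R 4.3.3) over 16049 and 16054 genes. P-values were adjusted by the Benjamini-Hochberg method over every gene fitted, with the study's thresholds of 0.01 and a log2 fold change of 1. On simulated data with a log2 change of 2, 200 of 200 changed genes were recovered with 2 false calls for EMM 3 h against Serum/LIF, and 187 of 200 with 1 for P10 EMM against P10 Serum/LIF. The changed genes were drawn only from those with a mean above 1 CPM. Recovery was thus not tested for genes counted more rarely, such as Hist1h3g (0.349 CPM) and Hist2h4 (0.372 CPM) in the time course. Ratios of summed counts carry exact binomial 95% intervals that cover counting error only, and a group at 0 was set to 3 counts. Alternatives were DESeq2 1.42.0, other size factors, other filters, a block for replicate number, and leaving out single libraries.

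Members and gene lists were chosen with earlier results of these data known. Named genes were, per comparison, up to 5 called rises and falls, the 2 members per class most abundant per kilobase, Hist1h3g and Hist1h3e, and from each gene list the called extremes with Slbp, Npat, Rn7sk and Rmrp. Hist2h2be, Hist1h2af, Terc, Rpph1 and the per-library examples of the first Serum/LIF library were named after their values were seen.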

Additional observations from a re-analysis of the deposited data

Results flagged for a closer look

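The effect of 2i/LIF against Serum/LIF differed between P20 and P10 for 2 histone genes by the test of the difference itself (edgeR's quasi-likelihood test). For Hist1h2bc the difference was -1.45 (SE 0.39, adjusted p = 0.0086) on the log2 scale. The gene had 39.5, 41.7 and 42.8 normalized counts in P10 Serum/LIF and 21.97, 20.3 and 32.6 in P10 2i/LIF, against 70.4, 90.00 and 104 and 18.8, 16.99 and 23.9 at P20, and the P20 Serum/LIF libraries were the highest. Over the alternatives the value ranged from -1.63 to -1.17, and the call was lost without any of 8 libraries, to -1.17 without the third P10 2i/LIF library.

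For Hist2h3c1 the difference was -8.69 (SE 2.1, adjusted p = 0.0065), a value that depends on the small count added in the fit because whole groups were at or near 0. It had 11, 0 and 0 counts in P10 Serum/LIF and 0, 4 and 23 in P10 2i/LIF, against 18, 25 and 21 and 0, 0 and 0 at P20. The P10 groups each rest on 1 or 2 libraries with any count, the gene shares every 60-base window with other genes, and the call was lost when any of 9 libraries was left out.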

How the results depend on the processing

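No histone result changed sign when it was called. Of 41 calls of a member in a comparison, 16 held under every alternative and 25 were lost under some. Counts of called members below are given in the order 3 h, 9 h and 24 h for the time course.

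Without the filter on low counts, 31, 25 and 21 of 62 were called in the time course, where 2.59%, 3.25% and 4.74% of all genes were. Leaving out a Serum/LIF library as well, an alternative chosen after seeing the data, gave 2, 1 and 3 without the first, 40, 37 and 26 without the second and 36, 32 and 24 without the third. Without the filter 71 could be tested in the passage experiment, with 7 called in P10 EMM against Serum/LIF, 19 in P10 EMM against 2i/LIF, 14 in P10 2i/LIF against Serum/LIF, 7 in P20 EMM against 2i/LIF, 10 in P20 2i/LIF against Serum/LIF, 8 in EMM, 11 in 2i/LIF and 4 in Serum/LIF between passages, and 4 and 7 for the differences between passages in EMM and in 2i/LIF. In the same order 9.59%, 12.3%, 14.6%, 14.3%, 12.5%, 5.28%, 5.85%, 1.71%, 5.27% and 5.86% of all genes were called. With at least 10 counts in every library, only 8 members were tested per experiment. Of these 1 was called at 3 h and 1 at 9 h, against 3.19% and 4.16% of all genes. At P10, 1 was called in EMM against Serum/LIF (11.4%), 1 in EMM against 2i/LIF (15.5%) and 1 in 2i/LIF against Serum/LIF (17.6%). In P20 2i/LIF against Serum/LIF 2 were called (13.1%). Between passages 0 were called in EMM (5.69%), 0 in Serum/LIF (1.22%) and 0 for the difference in 2i/LIF (9.05%). DESeq2 called 5 of 21 at 3 h and 5 of 21 at 24 h, against 3.71% and 7.55% of all genes. It called 1 of 42 in P20 EMM against 2i/LIF (25.2%), and 4 in EMM (8.94%) and 5 in 2i/LIF (10.3%) between passages. For the difference in EMM it called 1 (9.51%). At an adjusted p under 0.01 without a fold threshold, 5 of 21 were called at 3 h, all lower. Of all genes 16.3% were higher and 18.2% lower by that p at 3 h. In 2i/LIF between passages 2 of 42 were called by that p.

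Leaving out each library in turn gave 0 to 13 calls at 3 h, 1 to 13 at 9 h and 1 to 10 at 24 h, with the high end always without the second Serum/LIF library. The low end was without the first Serum/LIF library at 3 h, without that or the first or second EMM library at 9 h, and without the first EMM library at 24 h. Leaving out the third Serum/LIF library gave 9, 8 and 6. The ranges were 1 to 3 and 6 to 11 for P10 EMM against Serum/LIF and 2i/LIF, 3 to 8 for P10 2i/LIF against Serum/LIF, 2 to 3, 0 to 2 and 5 to 7 for the same comparisons at P20 in the order EMM against Serum/LIF, EMM against 2i/LIF and 2i/LIF against Serum/LIF, 1 to 2, 0 to 4 and 0 to 1 for EMM, 2i/LIF and Serum/LIF between passages, and 0 to 1 and 0 to 2 for the differences in EMM and 2i/LIF. The cause was not tested. A group left with 2 libraries was fitted with the spread shared over all groups.

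Replicate numbers did not pair the libraries: correlations of same-numbered deviations ran from -0.13 to 0.21 in the time course, with 5 of 18 above 0.1, and from -0.21 to 0.30 in the passage experiment, with 3 of 45. The titles' numbers, 1 to 3, were used, whereas the descriptions and column names number the EMM libraries of the time course 2 to 4, so these correlations and the block rest on that choice there. With a replicate block 6 were called at 3 h, 5 at 24 h and 1 in 2i/LIF between passages, against 4.21%, 8.21% and 10.0% of all genes. Of the 73 members, 8 had 10 or more counts in every library of either experiment. Class sums without members that overlap another gene stayed within the replicate SD in 34 of 40 cases and moved beyond it in 6, and could not be computed for H2A, where every member overlaps one.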
